A study of Mus musculus with 12 samples.

Results

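The genes described here are 40 genes whose products act in the G2 and M phases of the cell cycle. They were taken by name from a list chosen with earlier results of these data known. All 40 were among the 36528 gene IDs of the count table. RNA was sequenced from whole liver of 12 mice. In the CCl4 group, 6 mice had been given carbon tetrachloride (CCl4), a solvent that hepatocytes convert to a toxic radical, and in the oil group 6 mice had been given the corn oil vehicle alone. Both groups were injected intraperitoneally, 3 times a week over 6 weeks. The sources used here do not give strain, sex, age or the interval between the last injection and sampling. Values are CPM, counts per 1000000 counts after TMM scaling, which evens out the effect of a few dominant genes on library totals. All 40 genes passed the filter on low counts and were tested among 16032 genes. A gene could pass through 1 group alone. Ccnb1, with 1 or 2 counts in each oil library, and Kif18b, with 1 to 7, passed through the CCl4 group. Among genes with so few counts in oil, the filter favours a rise and groups that lie apart.

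A cell that enters mitosis does so when cyclins A and B activate the kinase Cdk1, and it leaves mitosis when the anaphase-promoting complex marks those cyclins for destruction. Between these events, centromeres assemble kinetochores, motor proteins build a spindle, and a contractile ring divides the cell. The transcripts of this machinery build up in G2, since their promoters are held silent in resting cells by the DREAM complex and switched on by MYBL2 and FOXM1 through a promoter element named CHR, with the factor NF-Y bound to nearby CCAAT boxes. Hepatocytes of adult liver are mostly resting. They can re-enter the cycle after injury, and many become polyploid by skipping cytokinesis.

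The members share sequence features that their selection did not use. RefSeq windows of the 250 bases before an annotated start (build GRCm38.p6) were at hand for 33 of the 40 genes. The letters CCAAT, or ATTGG on the other strand, stood in 27 of these 33 (81.8%), against 37.5% of 27025 genes with a window and 39.7% of the 11858 of them that were tested. At least 2 such boxes stood in 19 (57.6%), against 11.5% of all genes with a window. The CHR letters, searched as TTTGAA and its reverse complement TTCAAA and as TTCGAA, which is its own reverse complement, stood in 11 (33.3%), against 19.6%. Both kinds stood in 1 window in 10 members (30.3%), against 7.0%. Matches are descriptions of the letters and not measured binding sites, and no comparison of these shares was tested. The windows below belong to members with several boxes or with both kinds, and to Birc5, which has neither; capitals mark CCAAT boxes and CHR letters, and each window ends at the base before the start.
Ccnb2 (chr9:70421555-70421804, minus strand): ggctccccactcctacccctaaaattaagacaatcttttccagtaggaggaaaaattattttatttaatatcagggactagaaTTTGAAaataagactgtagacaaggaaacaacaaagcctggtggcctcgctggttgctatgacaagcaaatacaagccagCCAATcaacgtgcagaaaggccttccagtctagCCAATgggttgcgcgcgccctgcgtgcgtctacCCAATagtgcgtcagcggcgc
Cdk1 (chr10:69352913-69353162, minus strand): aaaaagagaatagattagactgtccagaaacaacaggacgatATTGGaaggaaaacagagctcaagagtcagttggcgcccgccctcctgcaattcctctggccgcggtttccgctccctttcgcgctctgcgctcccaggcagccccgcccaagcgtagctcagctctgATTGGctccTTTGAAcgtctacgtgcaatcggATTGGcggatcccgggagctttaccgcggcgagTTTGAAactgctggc
Cdc20 (chr4:118437344-118437593, minus strand): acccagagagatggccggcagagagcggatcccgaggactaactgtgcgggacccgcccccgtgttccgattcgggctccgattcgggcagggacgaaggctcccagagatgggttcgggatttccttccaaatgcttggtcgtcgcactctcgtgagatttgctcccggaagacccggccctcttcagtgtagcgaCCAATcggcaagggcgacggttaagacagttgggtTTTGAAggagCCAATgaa
Ube2c (chr2:164769679-164769928, plus strand): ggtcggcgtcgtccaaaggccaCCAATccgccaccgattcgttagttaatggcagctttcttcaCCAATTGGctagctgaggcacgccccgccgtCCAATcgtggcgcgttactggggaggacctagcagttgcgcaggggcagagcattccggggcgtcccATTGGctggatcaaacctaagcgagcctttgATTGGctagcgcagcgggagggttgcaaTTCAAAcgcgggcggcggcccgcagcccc
Top2a (chr11:99024190-99024439, minus strand): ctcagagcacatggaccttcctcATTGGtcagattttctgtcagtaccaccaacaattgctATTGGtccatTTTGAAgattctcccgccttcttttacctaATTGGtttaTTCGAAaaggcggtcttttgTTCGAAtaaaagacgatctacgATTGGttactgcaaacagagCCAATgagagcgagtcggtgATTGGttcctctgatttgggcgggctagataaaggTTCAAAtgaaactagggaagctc
Hmmr (chr11:40733438-40733687, minus strand): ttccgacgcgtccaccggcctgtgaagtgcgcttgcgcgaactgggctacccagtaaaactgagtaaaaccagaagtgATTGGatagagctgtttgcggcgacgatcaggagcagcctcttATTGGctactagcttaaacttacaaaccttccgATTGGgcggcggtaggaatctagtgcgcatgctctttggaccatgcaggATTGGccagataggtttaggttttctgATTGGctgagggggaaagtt
Birc5 (chr11:117848987-117849236, plus strand): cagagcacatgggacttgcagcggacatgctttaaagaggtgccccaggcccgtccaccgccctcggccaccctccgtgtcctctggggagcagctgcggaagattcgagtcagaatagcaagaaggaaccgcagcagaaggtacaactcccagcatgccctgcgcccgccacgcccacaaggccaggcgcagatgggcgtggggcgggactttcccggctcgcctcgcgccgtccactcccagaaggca

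In the Cdk1 window 1 TTTGAA began 15 bases and another 71 bases before the start, and ATTGG began 48, 80 and 208 bases before it. The Ccnb2 window held CCAAT at 21, 54 and 87 bases before the start. The Hmmr window held ATTGG 5 times and no CHR letters. In the Ube2c window a CCAAT and an ATTGG overlapped, at 186 and 183 bases before the start, and count as 2 of its 6 matches. The Birc5 window held none of the searched letters, and the levels of Birc5 are given with its complex below.

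Mitosis genes were higher after CCl4 in nearly every part of the machinery. With edgeR's quasi-likelihood test, 39 of the 40 members rose at an adjusted p of 0.05, none fell and Spc24 did not pass, whereas 20.6% of all tested genes rose and 18.4% fell. With upper-quartile scaling, which put the median of all genes at 0.13 instead of 0.01 on the log2 scale, 26.0% of all genes rose, and over 18 other settings this share ran from 13.8% to 26.0%. All 39 rose at least 2-fold, against 11.8% of all tested genes. At least 4-fold rises were seen in 30 members, against 3.44%, and at least 8-fold rises in 22, against 1.2%. The median log2 fold change of the members was 3.15, a fold of 8.86, against 0.01 over all tested genes. For 36 members every CCl4 liver lay above every oil liver, which held for 12% of tested genes. In whole liver, more dividing cells and more RNA per dividing cell cannot be told apart.

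Summed over the 40 members, oil livers held 45.5 to 63.7 CPM and CCl4 livers 126 to 333 CPM, so that no CCl4 liver fell into the range of the oil livers. The means were 54.5 ± 6.61 and 232 ± 70.9 CPM (SD, n = 6 each), a ratio of 4.25. Averaged as log2 CPM over the members, the oil livers stood at -0.70 ± 0.39 and the CCl4 livers at 2.02 ± 0.55 (SD, n = 6 each). The oil livers ran from -1.25 to -0.22 and the CCl4 livers from 1.17 to 2.60. This mean gives each gene the same weight, whereas Spc24, with 11.3 ± 1.70 CPM in oil, was the largest single part of the oil sum. In oil, 27 of the 40 members had a mean under 1 CPM, and in CCl4 1 member, Kif18b, did.

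**Figure D1:**
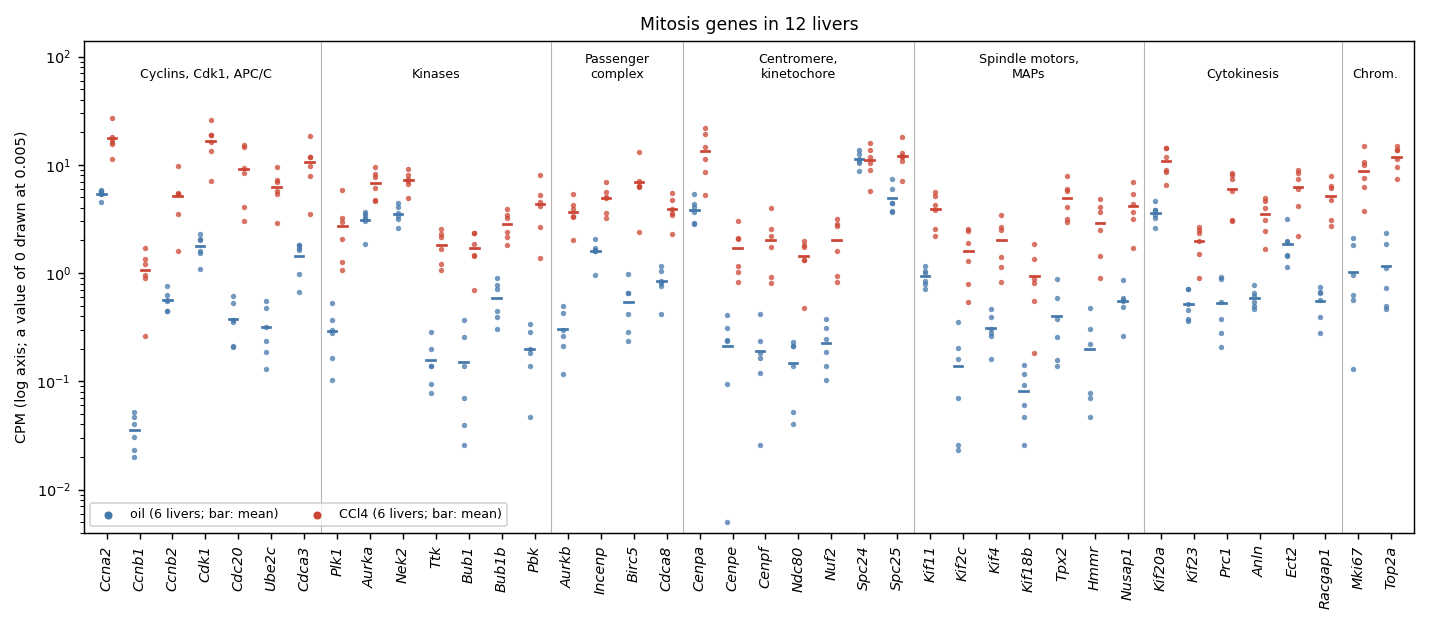
Each point is the CPM of a mitosis gene in 1 liver (vertical log axis), blue for 6 oil and red for 6 CCl4 livers, with a bar at the group mean and genes ordered by role. The groups are apart for 36 genes and overlap for Cenpa, Spc24, Spc25 and Ect2; the single value of 0, Cenpe in an oil liver, is drawn at 0.005.

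The cyclins, Cdk1 and the parts of the anaphase-promoting complex rose in 7 of 7 members, with a median log2 fold change of 3.23. Cdk1 (gene ID 12534, chromosome 10, 69335146 to 69352912), the kinase that drives entry into mitosis, ran from 1.08 to 2.29 CPM in oil (median 1.81) and from 7.02 to 25.9 CPM in CCl4 (median 17.5). The lowest CCl4 liver was thus above the highest oil liver, and the rise was 9.41-fold (log2 fold change 3.23 ± 0.29 SE, adjusted p = 1.71e-06). Ccna2, cyclin A2, which acts from S phase into early mitosis, ran from 4.50 to 5.83 CPM in oil (median 5.52) and from 11.4 to 27.3 CPM in CCl4 (median 16.8). Its oil livers lay close together, and its 3.26-fold rise was the smallest of this role (adjusted p = 7.36e-06). The gene span of Ccna2 overlaps that of Exosc9 by 863 bases. Exosc9 was at 16.1 CPM in oil and 23.7 CPM in CCl4, so that reads may be shared.

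The B cyclins, the partners of Cdk1 in mitosis itself, were low in oil. Ccnb1 rested on 10 counts over the 6 oil libraries, 1 or 2 in each, and on 432 counts in CCl4. It ran from 0.0200 to 0.0520 CPM in oil (median 0.0358) and from 0.265 to 1.70 CPM in CCl4 (median 1.09). Every CCl4 liver was above every oil liver, and the ratio of summed scaled counts was 30.4 (95% exact binomial interval 16.4 to 63.9, counting error only). The fitted log2 fold change of 4.85 ± 0.48 SE was the largest of all members (adjusted p = 3.97e-06). RefSeq lists the pseudogenes Ccnb1-ps and Ccnb2-ps, whose reads could be divided with their parent genes, so the levels of both B cyclins are uncertain, and the same holds for Aurkb with its pseudogene Gm5307. Ccnb2 rose 9.10-fold, from 0.566 ± 0.119 to 5.18 ± 2.70 CPM.

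Cdc20, the activator of the anaphase-promoting complex, ran from 0.208 to 0.619 CPM in oil (median 0.359) and from 3.05 to 15.2 CPM in CCl4 (median 8.94). The groups were far apart, and the rise of 23.4-fold was the second largest (log2 fold change 4.55 ± 0.45 SE, adjusted p = 3.97e-06). Ube2c, the ubiquitin-conjugating enzyme of the same complex, rose 19.2-fold, from 0.317 ± 0.167 to 6.28 ± 2.23 CPM, with the lowest adjusted p of the members (1.18e-06). Cdca3, a trigger of mitotic entry, rose 7.30-fold.

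All 7 mitotic and checkpoint kinases rose, with a median log2 fold change of 3.19, but the sizes ranged from 1.02 to 4.39. Pbk, a mitotic kinase of the MAPKK family, ran from 0.0468 to 0.340 CPM in oil (median 0.191) and from 1.39 to 8.02 CPM in CCl4 (median 4.34), a 20.9-fold rise (adjusted p = 6.35e-06). The spindle checkpoint kinases Ttk, Bub1 and Bub1b, which hold back anaphase until chromosomes are attached, rose by log2 values of 3.50, 3.46 and 2.24. Plk1, which acts at centrosomes, kinetochores and the cleavage furrow, rose 9.16-fold, from 0.290 ± 0.149 to 2.75 ± 1.77 CPM.

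Nek2 and Aurka had the smallest rises of all 39 genes. Nek2, which helps centrosomes to separate, ran from 2.60 to 4.43 CPM in oil (median 3.50) and from 4.92 to 9.20 CPM in CCl4 (median 7.23), a 2.03-fold rise (log2 fold change 1.02 ± 0.17 SE, adjusted p = 0.000365). Aurka, which matures the spindle poles, ran from 1.87 to 3.65 CPM in oil (median 3.23) and from 4.64 to 9.47 CPM in CCl4 (median 6.91), a 2.20-fold rise (adjusted p = 0.000811). For both, the CCl4 livers began above the highest oil liver. Both genes were already above 3 CPM in oil on average. The gene span of Aurka overlaps that of Cstf1 by 242 bases. Cstf1 was at 23.4 CPM in oil and 19.6 CPM in CCl4, so that reads may be shared.

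The chromosomal passenger complex, which corrects faulty attachments at centromeres and then moves to the midzone of the spindle, rose in 4 of 4 subunits (median log2 fold change 2.89). Birc5, survivin, ran from 0.234 to 0.979 CPM in oil (median 0.535) and from 2.41 to 13.1 CPM in CCl4 (median 6.41), a 12.7-fold rise (adjusted p = 1.13e-05). Incenp, the scaffold of the complex, ran from 0.960 to 2.08 CPM in oil (median 1.61) and from 3.20 to 7.01 CPM in CCl4 (median 5.0), a 3.07-fold rise (adjusted p = 6.06e-05). Neither gene had overlapping groups. Its kinase Aurkb rose 11.9-fold, from 0.302 ± 0.139 to 3.69 ± 1.10 CPM, and Cdca8, borealin, rose 4.65-fold. The subunits of this complex thus rose by log2 values from 1.62 to 3.67.

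**Figure D2:**
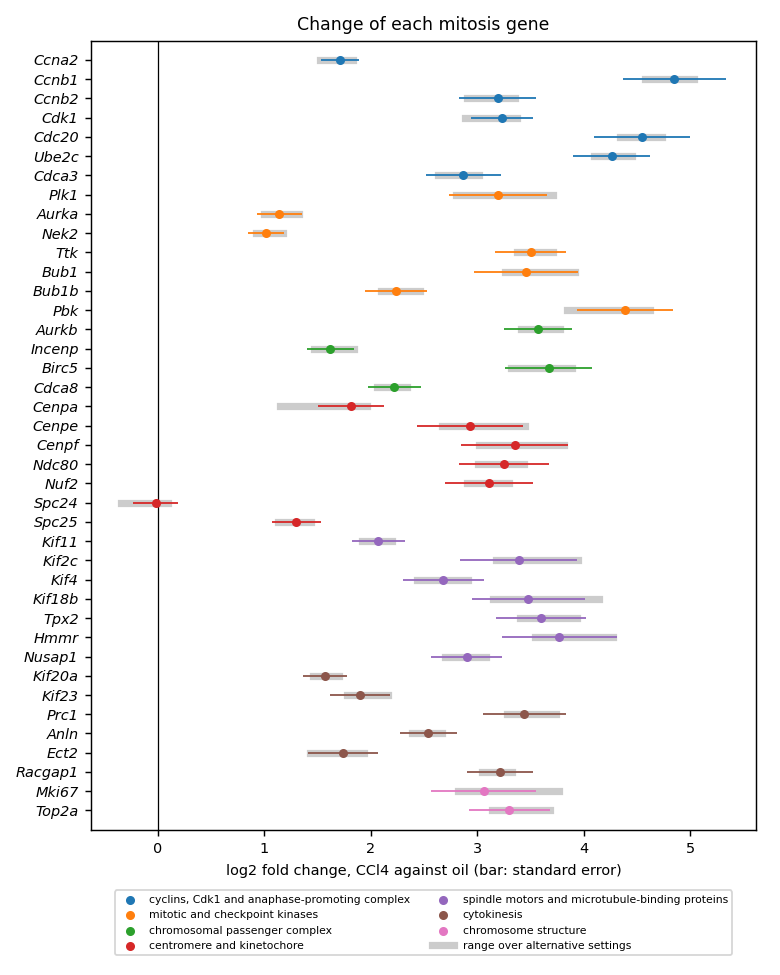
Points are log2 fold changes of CCl4 against oil for each mitosis gene, coloured by role, with bars for the standard error and grey bands for the range over up to 18 alternative settings. Ccnb1, at 4.85, lies farthest right, and Spc24, at -0.02, is the only gene whose band crosses 0.

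Centromere and kinetochore genes rose in 6 of 7 members, with a median log2 fold change of 2.93. Cenpa, the histone H3 variant that marks centromeres, ran from 2.82 to 5.33 CPM in oil (median 3.91) and from 5.26 to 22.1 CPM in CCl4 (median 13). Its groups touched, since the lowest CCl4 liver lay just under the highest oil liver, and the rise was 3.50-fold (log2 fold change 1.81 ± 0.31 SE, adjusted p = 0.000378). Its log2 fold change was 1.15 after adjustment for how each library's levels trend with transcript length, a measure given below. The kinesin Cenpe, which moves chromosomes to the spindle equator, and the kinetochore protein Cenpf rose 7.63-fold and 10.2-fold; Cenpe had no count in 1 oil library.

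The 4 subunits of the Ndc80 complex, the rod that ties kinetochores to microtubules, differed from each other. Ndc80 and Nuf2, which form the end that grips the microtubule, rose 9.50-fold and 8.62-fold, from 0.148 ± 0.0844 to 1.44 ± 0.546 CPM and from 0.227 ± 0.104 to 2.02 ± 1.03 CPM. Spc25, of the end that sits in the kinetochore, rose 2.46-fold from 4.95 ± 1.47 to 12.1 ± 3.59 CPM (adjusted p = 0.000497), with overlapping groups. Its partner Spc24 (gene ID 67629, chromosome 9, 21755434 to 21760446) ran from 8.72 to 13.7 CPM in oil (median 11.1) and from 5.68 to 15.8 CPM in CCl4 (median 11.2). The CCl4 livers spread to both sides of the oil livers, and Spc24 did not pass (log2 fold change -0.02 ± 0.21 SE, adjusted p = 0.951). The sign of this value changed between settings, from -0.34 to 0.10. Differences between members of the complex were not tested.

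Spindle motors and microtubule-binding proteins rose in 7 of 7 members, with the highest median log2 fold change of the 7 roles (3.39). Kif11, the motor that pushes spindle poles apart, ran from 0.718 to 1.17 CPM in oil (median 0.928) and from 2.22 to 5.6 CPM in CCl4 (median 4.02), a 4.20-fold rise (adjusted p = 1.88e-05). Tpx2, which starts microtubules near chromosomes and activates Aurka, ran from 0.140 to 0.877 CPM in oil (median 0.318) and from 2.99 to 7.95 CPM in CCl4 (median 4.94), a 12.1-fold rise (adjusted p = 1.50e-05). Both genes had groups apart. Hmmr, a spindle-assembly protein and hyaluronan receptor, rose 13.7-fold.

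Among the other motors, Kif2c, which takes microtubules apart at centromeres, rose 10.5-fold, and the chromokinesin Kif4 rose 6.39-fold. RefSeq lists the pseudogene Kif4-ps, with which reads of Kif4 could be divided. Kif18b, a motor that shortens astral microtubules, rose 11.2-fold from 0.0808 ± 0.0444 to 0.940 ± 0.595 CPM, on 24 counts over the 6 oil libraries. Its log2 fold change was 3.48, and 4.14 after adjustment for the length trend. Nusap1, which bundles microtubules around chromosomes, rose 7.48-fold.

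Genes of cytokinesis rose in 6 of 6 members, with a median log2 fold change of 2.22 and values from 1.57 to 3.44. Kif20a, which carries the passenger complex to the midzone, ran from 2.62 to 4.63 CPM in oil (median 3.64) and from 6.57 to 14.3 CPM in CCl4 (median 10.4), a 2.98-fold rise with groups apart (adjusted p = 4.71e-05). Its gene span overlaps Cdc23 by 4930 bases, and Cdc23 was at 11.4 CPM in oil and 16.3 CPM in CCl4, so that reads may be shared. Ect2, which activates RhoA at the site of the furrow, ran from 1.14 to 3.16 CPM in oil (median 1.70) and from 2.19 to 8.94 CPM in CCl4 (median 6.66). The lowest CCl4 liver lay within the oil range, and the 3.33-fold rise had the highest adjusted p of the 39 genes (0.000905).

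The other genes of the division site covered a similar range. Racgap1 and Kif23, which form the centralspindlin complex that recruits Ect2, rose 9.22-fold and 3.74-fold. Prc1, which crosslinks midzone microtubules, rose 10.8-fold from 0.533 ± 0.304 to 5.92 ± 2.38 CPM. Its span overlaps that of Rccd1 by 21669 bases. Rccd1 was at 3.17 CPM in oil and 3.31 CPM in CCl4, so that reads may be shared. Anln, anillin, the scaffold of the contractile ring, rose 5.83-fold.

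The chromosome structure genes Mki67 and Top2a are widely used to mark dividing cells. Mki67 (gene ID 17345, chromosome 7, 135689784 to 135716450), which coats mitotic chromosomes, ran from 0.130 to 2.11 CPM in oil (median 0.795) and from 3.72 to 14.8 CPM in CCl4 (median 8.70). Top2a, the topoisomerase that untangles sister chromatids, ran from 0.468 to 2.36 CPM in oil (median 0.922) and from 7.32 to 14.9 CPM in CCl4 (median 12.4), a 9.84-fold rise (adjusted p = 1.48e-05). For both genes the oil livers spread widely, with replicates 1 and 6 high and replicate 5 lowest, and still stayed below the CCl4 livers. The log2 fold change of Mki67 was 3.06 ± 0.49 SE (adjusted p = 0.000252), and 3.77 after adjustment for the length trend.

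**Figure D3:**
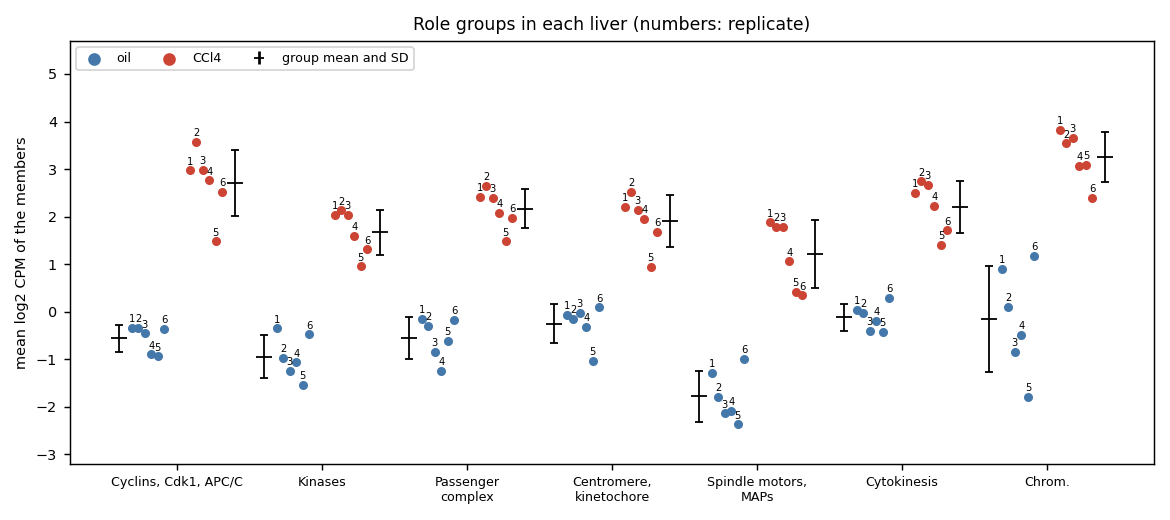
Points are the mean log2 CPM of the members of each role (vertical axis) in each liver, numbered by replicate, blue for oil and red for CCl4; black bars are the group mean and SD (n = 6). In every role the CCl4 livers lie above the oil livers, and CCl4 replicate 5 is lowest in 5 of the 7 roles.

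Per kilobase of the longest transcript, Spc24, Spc25 and Ccna2 had the highest levels of the list in both groups. In oil they stood at 6.64, 2.65 and 1.82 CPM per kilobase and in CCl4 at 6.55, 6.50 and 5.96. Cdc20 went from place 15 in oil (0.212 CPM per kilobase) to place 5 in CCl4 (5.09), and Ube2c from 23 (0.145) to 11 (2.87). Nek2 went from place 5 (1.10 CPM per kilobase) to 14 (2.23), and Incenp from 9 (0.461) to 19 (1.42). The lowest levels in CCl4 were those of Cenpe (0.214) and Cenpf (0.183). These places are descriptions, and the differences between neighbours were not tested.

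The 6 CCl4 livers differed from each other in how much mitotic RNA they held. The mean log2 CPM of the members was 2.60 in replicate 2, 2.40 in replicate 1 and 2.39 in replicate 3. It was 1.98 in replicate 4, 1.60 in replicate 6 and 1.17 in replicate 5. Replicate 5 was the lowest CCl4 liver for 29 of the 40 members and replicate 6 for the other 11. Replicate 2 was highest for 19, replicate 1 for 13 and replicate 3 for 8. The widest range was that of Kif18b, with a 10.2-fold span between the lowest and highest CCl4 liver, and Nek2 had the narrowest, 1.87-fold. In 25 of the 40 members the SD of log2 CPM was larger among CCl4 than among oil livers. The same share over all tested genes was not computed. The prior count of 2 in log2 CPM also narrows the spread of genes with few counts, as many members had in oil, so this count is a description only.

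The genes did not all rank the CCl4 livers alike. Ccna2, Cdk1, both B cyclins and Cenpa were highest in replicate 2 and lowest in replicate 5. Mki67, Kif4, Kif18b, Cenpe, Plk1, Nek2 and Incenp were highest in replicate 1 and lowest in replicate 6. Libraries also differed in how strongly levels depended on transcript length, measured as the slope of log2 CPM, less the gene's mean, on log2 length over 13882 of the 16032 tested genes. This slope was -0.376 in CCl4 replicate 6, the lowest of all 12 libraries, 0.109 in replicate 1 and 0.164 in replicate 5. Of the 20 members with transcripts longer than the list's median of 3440 bases, 17 were higher in replicate 1 than in replicate 6, by a median of 1.03 on the log2 scale. Of the 20 others 14 were, by a median of 0.45. The part of this slope in the order of the livers was not tested; the number of members that rose was 39 after adjustment for the slope as well.

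**Figure D4:**
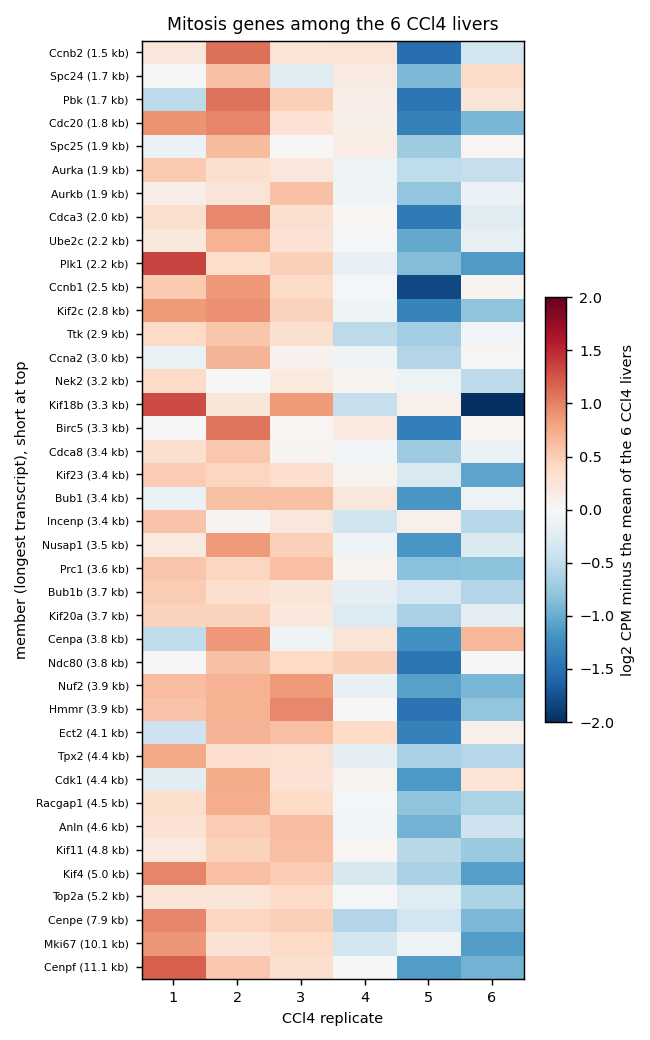
Colours are log2 CPM less the mean of the 6 CCl4 livers for each mitosis gene (rows, shortest transcript at the top) in each CCl4 liver (columns). Replicate 5 is the lowest liver for 29 genes, and replicate 6 for 11, among them Mki67 and Cenpe with long transcripts.

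Among oil livers the mean log2 CPM of the members was -0.22 in replicate 6 and -0.33 in replicate 1. It was -0.60 in replicate 2, -0.86 in replicate 3, -0.94 in replicate 4 and -1.25 in replicate 5. Replicate 6 was the highest oil liver for 15 members and replicate 5 the lowest for 17. Replicate 5 also had the smallest library of the study (43027778 counts) and replicate 6 the largest (70375852). Replicate 5 had the only negative length slope of the oil libraries, -0.151, while replicate 6 had the highest, 0.251. The part of depth and length in this order was not tested.

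Markers of some other cell types were higher in the same livers. Of 8 markers of activated stellate cells 8 rose, with a summed level of 58.4 to 131 CPM in oil and 482 to 774 CPM in CCl4, and of 8 macrophage markers 7 rose (159 to 241 and 515 to 812 CPM). CCl4 replicate 5, lowest in mitosis genes, had the highest stellate sum (774 CPM) and the lowest macrophage sum (515 CPM) of its group. From CCl4 replicate 1 to replicate 6 the macrophage sums were 523, 709, 613, 696, 515 and 812 CPM. The stellate sums in the same order were 737, 722, 683, 482, 774 and 606 CPM. The relation of these sums to the order of the mitosis genes was not tested. Of 8 B cell markers 5 rose (4.62 to 6.85 and 8.65 to 11.1 CPM), and of 7 bile duct markers tested 3 rose (50.5 to 83.1 and 158 to 214 CPM). Of 7 T cell markers 1 rose and 1 fell (4.79 to 7.28 and 3.37 to 5.95 CPM). Of 8 endothelial markers 1 rose and 2 fell (161 to 271 and 168 to 202 CPM). Among all tested genes 20.6% rose and 18.4% fell, and the T cell and endothelial counts were near these shares.

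Markers of blood cell precursors, skeletal muscle and hepatocytes were looked at as well. Of 8 erythroid precursor markers 4 were tested and 2 fell (123 to 183 CPM in oil and 68.0 to 110 CPM in CCl4). Of 8 neutrophil precursor markers 2 were tested and 1 rose (0.938 to 11.9 and 10.4 to 43.2 CPM). That sum was mostly Prtn3, at 5.5 CPM in oil and 20.3 CPM in CCl4 on average. Of 8 skeletal muscle markers 2 were tested and 2 rose; their level summed to 291 CPM in CCl4 replicate 1 and 53.7 CPM in replicate 3, and ran from 0.818 to 1.79 CPM in the other libraries. Without CCl4 replicate 1 the number of members that rose was again 39. Hepatocyte markers, 7 of the 8 listed, summed to 102000 to 142000 CPM in oil and 100000 to 150000 CPM in CCl4. Of these 7, 1 rose and 1 fell, beside 20.6% risen and 18.4% fallen among all tested genes. No marker of these lists that was found in the table was at 0 in all 12 libraries. The part of these cells in the rise of the mitosis genes was not tested.

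Most other listed genes of G2 and M phase rose as well. This list too was chosen with earlier results of these data known. Of 59 further genes of these phases 58 were tested, 53 rose and 1 fell, with a median log2 fold change of 2.38. Over all tested genes 20.6% rose and 18.4% fell. Ncapg2, a condensin subunit, rose 5.28-fold from 1.19 ± 0.276 to 6.31 ± 1.07 CPM (adjusted p = 5.36e-07), and Sgo1, shugoshin, which protects cohesion at centromeres, rose 10.1-fold (adjusted p = 2.58e-06). Ccnf, an F-box protein with a cyclin domain, fell 1.47-fold from 42.9 ± 4.40 to 29.2 ± 5.69 CPM (adjusted p = 0.0059). Pttg1, securin, the inhibitor of separase, did not pass, at 29.7 ± 3.57 CPM in oil and 29.9 ± 8.51 CPM in CCl4 (adjusted p = 0.982). Cks2, Cenpm and Cit also did not pass; Pttg1 and these 3 were named after their values were seen.

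Genes of S phase rose in 29 of 32 members and none fell, beside 20.6% risen and 18.4% fallen among all tested genes. Their median log2 fold change was lower, at 1.07, and the difference from the mitosis genes was not tested. Rrm2, a subunit of ribonucleotide reductase, rose 5.83-fold from 3.32 ± 0.618 to 19.4 ± 4.37 CPM (adjusted p = 3.83e-07). Ccne1, cyclin E1, which opens S phase, rose 6.76-fold (adjusted p = 3.87e-06). Mcm10, Tk1 and Pole, named after their values were seen, did not pass. Mcm10 was at 54.5 ± 21.8 CPM in oil and 33.6 ± 11.7 CPM in CCl4 (adjusted p = 0.0705).

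Of 24 transcription factors of the cell cycle 22 were tested, 4 rose and 5 fell, counts near the shares of all tested genes (20.6% rose and 18.4% fell), and the median log2 fold change was 0.01. Foxm1, the activator of G2 and M phase promoters, rose 7.25-fold from 0.379 ± 0.174 to 2.80 ± 1.54 CPM (adjusted p = 0.000158). Rbl1, the pocket protein p107, rose 3.06-fold (adjusted p = 0.000213), and E2f1 and E2f2, activators of S phase genes, rose 1.77-fold and 2.05-fold. Rbl2, the pocket protein p130 of the DREAM complex, fell 1.87-fold from 39.9 ± 2.52 to 21.3 ± 3.81 CPM (adjusted p = 0.000107). The other 4 that fell, named after their values were seen, were E2f8, an atypical repressor tied to hepatocyte polyploidy, Rb1, Tfdp2 and E2f6. E2f8 fell 3.04-fold from 13.4 ± 7.02 to 4.40 ± 1.07 CPM (adjusted p = 0.00106). Mybl2, at 0.184 CPM in oil and 0.239 CPM in CCl4, did not pass the filter on low counts.

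Of 18 regulators of entry into or exit from mitosis, 7 rose and 2 fell, with a median log2 fold change of 0.18. Among all tested genes 20.6% rose and 18.4% fell. The list, labelled as brakes in the figure, is mixed and holds Bora, which promotes entry into mitosis and did not pass. Pkmyt1, a kinase that inhibits Cdk1, rose 3.76-fold from 2.05 ± 0.761 to 7.76 ± 2.85 CPM (adjusted p = 0.000185). Wee1, another kinase that inhibits Cdk1, did not pass (7.43 CPM in oil and 7.23 CPM in CCl4, adjusted p = 0.938; named after its values were seen). Gadd45g, a stress-induced inhibitor of the Cdk1 and cyclin B pair, fell 3.87-fold from 46.4 ± 19.4 to 12 ± 4.36 CPM (adjusted p = 0.000188). Cdc14b, a phosphatase that opposes Cdk1, fell 2.39-fold (adjusted p = 0.00211). The other genes of the list that rose, named after their values were seen, were Cdkn1a, Fbxo5, Chek1, Chek2, Cdkn1c and Cdc14a. Cdkn1a rose 2.32-fold, from 24.7 to 57.2 CPM on average, and Cdc14a rose 1.51-fold.

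**Figure D5:**
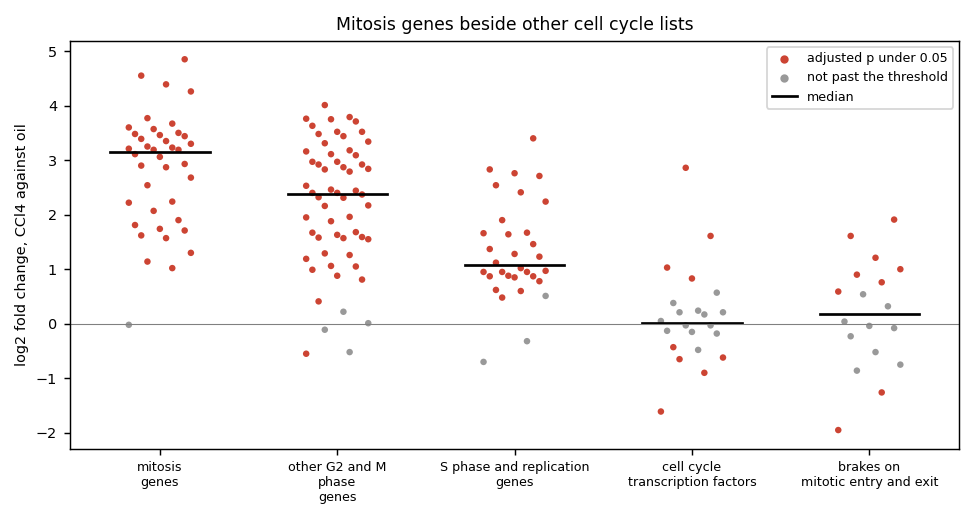
Points are log2 fold changes of CCl4 against oil for each tested gene of the mitosis list and of 4 other cell cycle lists, red where the adjusted p was under 0.05, with a black line at the median. Medians were 3.15 for the mitosis genes, 2.38 for other G2 and M phase genes and 1.07 for S phase genes. They were 0.01 for transcription factors and 0.18 for the list labelled brakes.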

How the data were processed

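Gene-level read counts of whole liver were used from 12 mice, 6 per group by the treatment label. Per the labels, RNA was extracted on columns and made into stranded total RNA libraries. The authors deposited raw counts per Entrez gene ID; all 12 sample files equalled the columns of the series table. The build was GRCm38 per the submitters' processing notes. The aligner, counter, annotation and strand setting were not given in the sources used here. Overlapping genes and close copies may share reads. Total counts ran from 43027778 to 70375852, and a level far under 1 CPM stands for few reads.

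Names and promoters came from RefSeq (GRCm38.p6), and transcript lengths from GENCODE M21, by the longest transcript. Of 36528 IDs 5401 had no name and held 2.19% of counts. After edgeR's filterByExpr and TMM scaling, the robust quasi-likelihood F test (edgeR 4.0.16, R 4.3.3) compared the groups over 16032 genes, with Benjamini-Hochberg adjustment over all of them and a threshold of 0.05. A prior count of 2 entered log2 CPM. The script was tested on simulated counts. The standard error was the log2 fold change divided by the square root of F. Replicate numbers only name mice.

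The members and lists were chosen with earlier results of these data known. Each member may be named; ranges are given for the 2 most abundant of each role, the 3 largest and 3 smallest changes and any that did not pass. Of the other lists, the 2 called genes with the smallest p and those against the majority are named. Alternatives were 2 other scalings, DESeq2 1.42.0, leaving genes unfiltered, asking for 50 counts in 6 libraries, a term for the length trend, leaving out each library, and prior counts of 0.5 and 5.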

Additional observations from a re-analysis of the deposited data

Results flagged for a closer look

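Of 82 sets of 6 livers (each of the 40 genes and their mean, in oil and in CCl4), 5 had a liver apart from the others, its gap to the nearest exceeding Dixon's 95% limit for the set's range of log2 CPM; chance alone gives about 1 in 20. In CCl4 replicate 5, Ccnb1 was at 0.265 CPM (0.909 to 1.70 in the other CCl4 livers) and Ndc80 at 0.477 CPM (1.32 to 1.98). In oil, Ccna2 was at 4.50 CPM in replicate 3 (5.37 to 5.83 in the others) and Aurka at 1.87 CPM in replicate 5 (3.04 to 3.65). Incenp was at 0.960 CPM in oil replicate 4 (1.59 to 2.08 in the others). All 5 values lay on the low side.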

How the results depend on the processing

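The count of 39 risen and 0 fallen members was the same without any 1 library, with either other scaling, with DESeq2, with no filter and after adjustment for the length trend. The filter of 50 counts in 6 libraries left 33 members, of which 32 rose. The median log2 fold change of the members was 2.93 to 3.27 without 1 library. The difference of the liver means of log2 CPM was 2.72, 2.61 to 2.89 without 1 library, 2.85 and 2.55 with prior counts of 0.5 and 5, and 2.96 with medians over the members. Of 947 single-gene values 941 kept direction and side of the threshold. The other 6 were those of Spc24, which never passed: its log2 fold change of -0.02 was 0.10 with upper-quartile scaling, 0.01 with the filter of 50 counts, and -0.15 to 0.10 without 1 library (above 0 without CCl4 replicates 3 or 5 and without oil replicates 1 or 3). The cause was not tested. Folds, on the linear scale, moved by over 1.5 times for 3 members, Cenpa, Kif18b and Mki67, with the length term. Other G2 and M phase genes had 34 risen under the filter of 50 counts, as fewer genes were tested, and 2 fallen with the length term. S phase genes had 1 fallen with DESeq2 and with the length term, and 0 to 1 without 1 library (1 without CCl4 replicate 4, oil replicate 5 or oil replicate 6). Rises made up 52.8% of all calls under TMM but 67.3% under upper-quartile scaling. Replicate 5 stayed the lowest CCl4 liver for 29 members under 4 other settings, chosen after the data were seen. No paired analysis was possible because replicate numbers were given in order of deposit and pair no mice. Depth limits the oil levels of Ccnb1 and Kif18b most, with 10 and 24 counts over 6 libraries.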
